A study of Mus musculus with 4 samples.

Results

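The genes described here encode the secreted ligands Nodal, Gdf3, Bmp4 and Bmp7, the Nodal co-receptor Tdgf1, the Nodal inhibitors Lefty1 and Lefty2, and the nuclear proteins Id1, Id2 and Id3. They were chosen by name, as every probe whose accession maps to 1 of these 10 symbols. The mapping used no measured value, but the symbols were picked with earlier results of these data known. The array holds 13 probes for them, with 2 each for Bmp7, Id1 and Id2, and all 10 genes were among the 21639 genes and transcripts tested. Each gene was well above background on all 4 arrays, so none was left out by the filter on dim probes.

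RNA was measured in 4 mouse embryonic stem cell (ESC) lines, each hybridised to 1 one-colour Agilent array. The 2 KO lines were deficient for Dppa2, also called ECAT15-2 (15-2-/-), and carried the conditional targeted allele of ECAT15-1, the gene Dppa4, on both copies (15-1CT/CT). The 2 WT lines were wild type at both genes (15-1+/+ and 15-2+/+). All 4 lines came from blastocysts of crosses between parents heterozygous at both genes, on a background mixed from 129Sv, C57/BL6 and an unrecorded transgenic stock. Cells were kept for 3 days on gelatin-coated plates in medium containing LIF and 15% FCS. KO 1 and WT 1 came from mother 1046, and KO 2 and WT 2 from mother 875. Each line is a single derivation with 1 array, so p-values measure the spread between lines, and an effect of the Dppa4 allele cannot be told apart from that of Dppa2.

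Nodal is a ligand of the TGF-beta family. It signals through activin receptors together with the co-receptor Tdgf1 (Cripto), and the receptors phosphorylate Smad2 and Smad3, which act on target genes with the DNA-binding partner Foxh1. Lefty1 and Lefty2 are targets of the pathway that block it in turn. BMP ligands such as Bmp4 use other receptors and the Smads Smad1 and Smad5, and the Id genes are their best known targets. Id proteins bind basic helix-loop-helix transcription factors and keep them from DNA. In mouse ESCs grown with LIF, BMP signalling from serum is known to sustain Id expression, and Nodal and Lefty genes are active without being required for self-renewal.

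The promoters of 4 members are shown because they stand for both directions seen among the 10 genes, with Bmp4 and Nodal above WT and Id2 and Id3 below WT on both KO arrays. Each is the RefSeq window of build GRCm38.p6 from 250 bases before to 50 bases after the gene start, written 5′ to 3′ on the strand of the gene. Capitals mark the SMAD box GTCT and the GC-rich SMAD element GGCGCC on either strand, which are DNA letters that SMAD proteins can bind. The windows are chr14:46390620-46390919 on the minus strand for Bmp4, chr10:61417722-61418021 on the plus strand for Nodal, chr12:25096043-25096342 on the minus strand for Id2 and chr4:136143572-136143871 on the plus strand for Id3.
Bmp4: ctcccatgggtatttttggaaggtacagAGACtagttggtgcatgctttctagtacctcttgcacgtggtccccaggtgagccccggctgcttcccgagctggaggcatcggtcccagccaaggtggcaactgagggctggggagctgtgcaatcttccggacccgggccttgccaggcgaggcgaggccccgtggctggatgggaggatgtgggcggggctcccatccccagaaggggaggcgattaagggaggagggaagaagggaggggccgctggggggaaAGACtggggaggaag
Nodal: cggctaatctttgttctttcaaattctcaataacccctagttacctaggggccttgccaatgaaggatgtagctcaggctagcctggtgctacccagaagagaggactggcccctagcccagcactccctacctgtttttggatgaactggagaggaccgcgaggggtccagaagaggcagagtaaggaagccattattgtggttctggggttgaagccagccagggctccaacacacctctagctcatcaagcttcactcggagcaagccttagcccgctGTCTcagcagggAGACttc
Id2: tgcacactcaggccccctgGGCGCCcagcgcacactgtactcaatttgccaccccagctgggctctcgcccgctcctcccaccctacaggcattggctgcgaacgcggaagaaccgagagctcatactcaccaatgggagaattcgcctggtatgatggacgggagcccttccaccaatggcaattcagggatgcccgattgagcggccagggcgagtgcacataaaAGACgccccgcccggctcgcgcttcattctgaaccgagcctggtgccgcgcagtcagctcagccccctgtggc
Id3: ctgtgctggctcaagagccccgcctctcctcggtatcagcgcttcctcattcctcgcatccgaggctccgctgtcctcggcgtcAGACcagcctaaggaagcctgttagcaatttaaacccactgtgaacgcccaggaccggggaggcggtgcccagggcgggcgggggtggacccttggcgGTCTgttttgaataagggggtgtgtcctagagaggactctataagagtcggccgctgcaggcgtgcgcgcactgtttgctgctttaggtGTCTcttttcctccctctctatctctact
The table of promoters held 5 of the 10 members, the fifth being Tdgf1. All 5 contained at least 1 GTCT or its reverse complement, as did 88.0% of the 32851 promoters in the table. GGCGCC, which reads the same on both strands, was found in Id2 alone of the 5, from base -231 to base -226 relative to the start, and in 11.9% of all promoters. The FOXH1 element AATNCACA was in 0 of the 5 on either strand and in 3.60% of all promoters. These motifs share no overlapping bases in the windows shown. A match describes letters in the window and was not tied to binding.

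Dppa2 was measured first as a check of the labels. It had 7.05 and 7.12 log2 signal in the KO lines, against 12.09 and 12.03 in the WT lines (log2 difference -4.97, SE 0.12, n = 2 per group, limma adjusted p = 0.0089). Whether its single probe falls inside the deleted sequence could not be read from the labels or files. Whether the lower signal reads the deletion itself was therefore not tested. Dppa4 had 13.95 and 14.07 in KO lines, against 13.37 and 13.54 in WT lines (log2 difference 0.55, limma adjusted p = 0.154, n = 2 per group). All values are log2 of the background-subtracted spot signal, scaled to the 75th percentile of each array. Between 68.4% and 70.3% of 41174 gene probes were well above background on each array, no gene spot was saturated, and all 4 arrays shared 1 slide and 1 scan. The ESC identity of the lines was read from 9 measured ESC markers, all well above background on every array. In bulk RNA, fewer cells of a type and less RNA per cell cannot be told apart.

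None of the 10 genes passed the test across all genes (limma, Benjamini-Hochberg adjusted p under 0.05), where 1.67% of all genes were called lower and 0.176% higher in KO lines. Adjusted p for the 10 lay between 0.142 for Gdf3 and 0.877 for Lefty2. At an unadjusted limma p under 0.05, Gdf3, Bmp4 and Nodal were higher and Id2 was lower, so 3 of 10 were higher against 11.1% of all genes and 1 of 10 lower against 12.4%. With arrays centred on their medians the unadjusted counts were 4 higher and 0 lower, while over all genes they were 4778 higher and 2100 lower, against 2412 and 2687 with the main scaling. With the mother as a block they were 2 higher and 0 lower among the 10, without KO replicate 2 they were 0 and 1, without WT replicate 1 they were 2 and 0, and without WT replicate 2 they were 1 and 0. The median log2 difference of the 10 genes was 0.02, and that of all genes tested was 0.10, or 0.26 under median centring. Both KO arrays lay above both WT arrays for 5 of the 10 genes (Nodal, Gdf3, Tdgf1, Lefty1 and Bmp4) and for 37.7% of all genes. Both lay below for 2 of the 10 (Id2 and Id3) and for 24.5% of all genes. For the counts without overlap, the shares among 10 genes were near those of all genes.

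**Figure D1:**
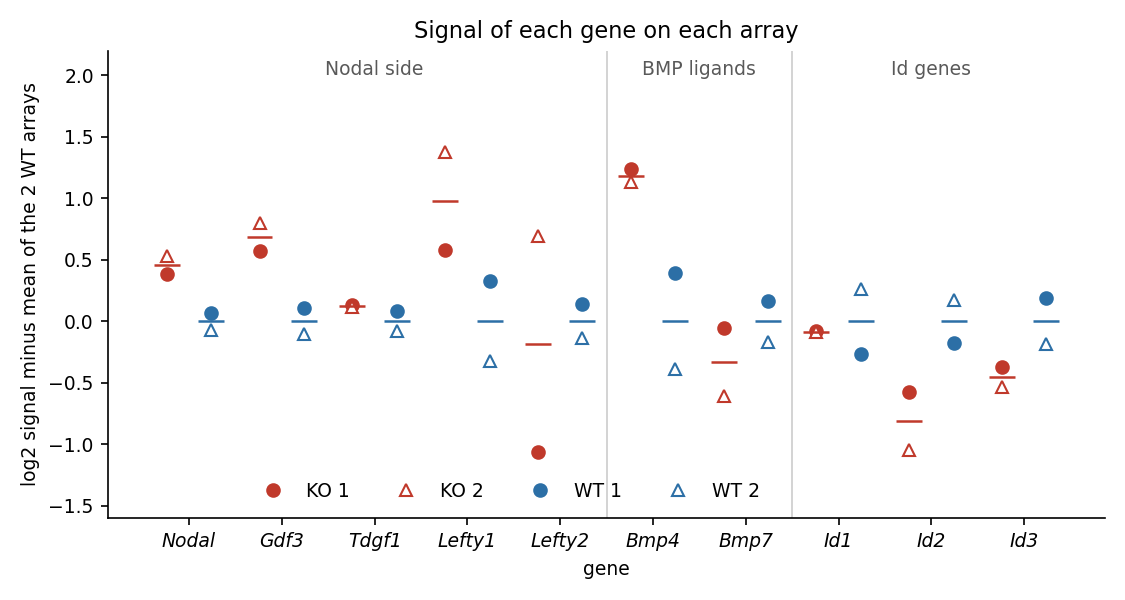
Signal of the 10 genes on each array, as log2 signal minus the mean of the 2 WT arrays of the same gene. Red marks are KO and blue marks WT arrays, circles replicate 1 and triangles replicate 2, and short bars are group means. Bmp4 stands 1.18 above the WT mean with both KO arrays close together, and the KO arrays of Lefty2 lie on opposite sides of both WT arrays.

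Among the Nodal ligands, Nodal had 14.25 and 14.40 log2 signal in KO lines, against 13.94 and 13.80 in WT lines. The groups did not overlap, and the gap between them was 0.31. The KO mean was 1.37-fold higher (log2 difference 0.46, SE 0.14, 95% interval 0.05 to 0.86, n = 2 per group, limma adjusted p = 0.187). Gdf3, a relative of Nodal that can also hold back BMP ligands, had 12.88 and 13.10 in KO lines, against 12.41 and 12.20 in WT lines. Its groups did not overlap either, with a gap of 0.47. The KO mean of Gdf3 was 1.61-fold higher (log2 difference 0.69, SE 0.17, 95% interval 0.21 to 1.16, n = 2 per group, limma adjusted p = 0.142). Within the pair of mother 1046 the log2 difference was 0.31 for Nodal and 0.47 for Gdf3. Within the pair of mother 875 it was 0.60 for Nodal and 0.91 for Gdf3.

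Tdgf1, the co-receptor that Nodal needs, had the smallest difference of the Nodal side. It had 13.78 and 13.77 log2 signal in KO lines, against 13.73 and 13.57 in WT lines. The KO arrays lay 0.039 above the higher WT array, a smaller step than the spread between the WT lines. The log2 difference was 0.13 (95% interval -0.25 to 0.51, limma adjusted p = 0.580, n = 2 per group). It had a negative sign, of at most 0.025 in size, under quantile scaling, normexp with quantiles and in the deposited values, so no direction is given for Tdgf1.

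Lefty1 had 14.53 and 15.33 log2 signal in KO lines, against 14.28 and 13.63 in WT lines. Both KO lines stood above both WT lines, but KO 1 did so by only 0.25. The KO mean was 1.97-fold higher (log2 difference 0.98, SE 0.40, 95% interval -0.16 to 2.12, n = 2 per group, limma adjusted p = 0.248). The pair of mother 875 carried most of it, with 1.71 against 0.25 in the pair of mother 1046. Without KO replicate 2 the difference was 0.58 and without WT replicate 2 it was 0.65, against 1.38 without KO replicate 1 and 1.31 without WT replicate 1.

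Lefty2 differed between the KO lines more than between genotypes. It had 10.88 log2 signal in KO 1 and 12.65 in KO 2, against 12.09 in WT 1 and 11.81 in WT 2. KO 1 was the lowest and KO 2 the highest of the 4 arrays, so the groups overlapped. The gap of 1.76 between the KO lines was exceeded by 2.98% of all genes tested, whereas the WT gap of 0.28 was exceeded by 34.8%. The log2 difference of the means was -0.19 with a 95% interval from -2.09 to 1.72 (limma adjusted p = 0.877, n = 2 per group). It turned to 0.69 without KO replicate 1 and was -1.07 without KO replicate 2. Lefty1 and Lefty2 are close sequence copies, each read here by 1 probe, and cross-hybridisation between them was not tested.

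**Figure D2:**
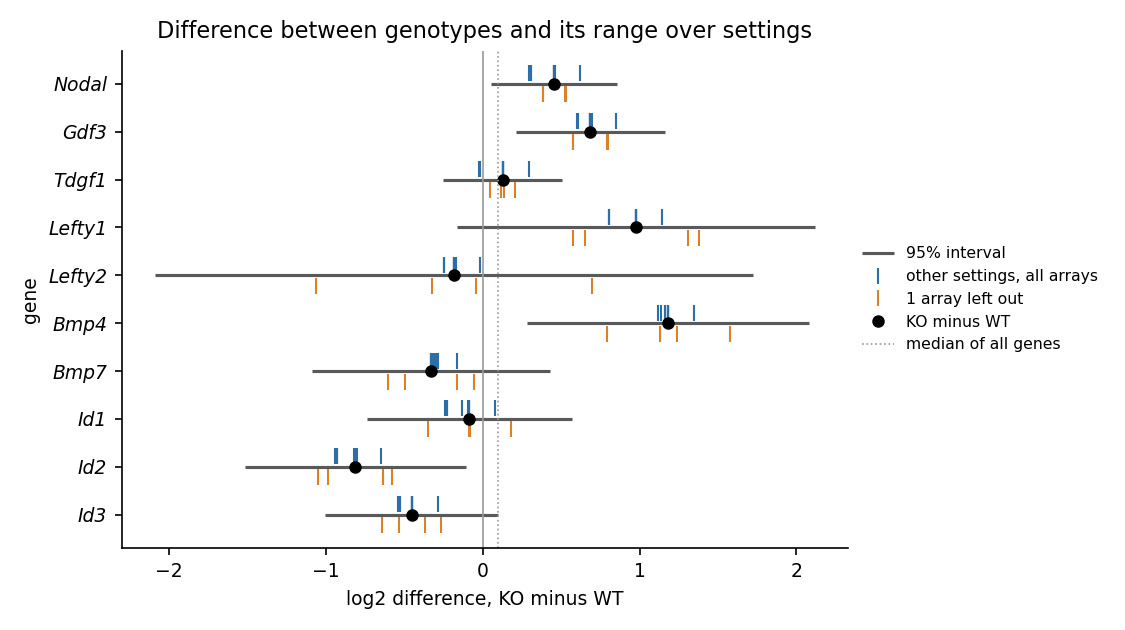
Log2 difference, KO minus WT, of each gene (black point) with its 95% interval from limma (grey bar, n = 2 per group). Blue ticks are the values under other scalings, backgrounds, filters, probe rules and models with all arrays, orange ticks those with 1 array left out, and the dotted line is the median of all genes at 0.10. Intervals of Nodal, Gdf3 and Bmp4 lie above 0 and that of Id2 lies below 0, before adjustment over all genes.

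Of the BMP ligands, Bmp4 had the largest difference among the 10 genes. It had 11.53 and 11.42 log2 signal in KO lines, against 10.69 and 9.90 in WT lines. The groups did not overlap, with a gap of 0.74, and the spread was in the WT lines, whose gap of 0.78 was exceeded by 8.01% of all genes. The KO mean was 2.27-fold higher (log2 difference 1.18, SE 0.31, 95% interval 0.28 to 2.08, n = 2 per group, limma adjusted p = 0.159). Over the 14 alternatives the log2 difference ran from 0.79 without WT replicate 2 to 1.57 without WT replicate 1. Bmp4 was printed 10 times on each array, and the SD between its spots was 0.033 to 0.045 on the log2 scale.

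Bmp7, a ligand that forms dimers with other BMPs, had 10.10 and 9.55 log2 signal in KO lines, against 10.32 and 9.99 in WT lines on its brighter probe. KO 1 lay between the WT arrays, and the groups overlapped. The log2 difference was -0.33 (95% interval -1.09 to 0.43, limma adjusted p = 0.476, n = 2 per group). A second Bmp7 probe, printed 10 times, had 9.81 and 9.30 in KO lines, against 9.90 and 9.70 in WT lines, a difference of -0.24. The probes differed by 0.089 in their log2 differences, less than the SE of 0.27. In the reference annotation Lefty1, Bmp4 and Bmp7 overlap long non-coding RNA genes, and whether their probes also read these was not tested.

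The Id genes differed among themselves. Id1 had 13.74 and 13.73 log2 signal in KO lines, against 13.56 and 14.09 in WT lines. Both KO values of Id1 lay between the WT values, and the KO gap of 0.0080 was exceeded by 98.0% of all genes. The log2 difference was -0.086 (95% interval -0.74 to 0.57, limma adjusted p = 0.829, n = 2 per group), and its second probe gave -0.17. Its sign turned under median centring (0.079) and without WT replicate 2 (0.18).

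Id2 had 13.21 and 12.73 log2 signal in KO lines, against 13.61 and 13.96 in WT lines. The groups did not overlap, with a gap of 0.40. The KO mean was 1.76-fold lower (log2 difference -0.81, SE 0.25, 95% interval -1.52 to -0.11, n = 2 per group, limma adjusted p = 0.183). Its second probe had 12.61 and 12.20 in KO lines, against 12.97 and 13.49 in WT lines, and gave -0.83. Within the pairs the difference was -0.40 for mother 1046 and -1.22 for mother 875.

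Id3 had 12.32 and 12.15 log2 signal in KO lines, against 12.88 and 12.50 in WT lines. The groups did not overlap, and the gap was 0.18. The KO mean was 1.37-fold lower (log2 difference -0.45, SE 0.19, 95% interval -1.004 to 0.097, n = 2 per group, limma adjusted p = 0.259). Within the pairs it was -0.56 for mother 1046 and -0.35 for mother 875. Id4, the remaining Id gene, was added after its values were seen and had 9.65 and 9.55 in KO lines, against 9.62 and 9.43 in WT lines (log2 difference 0.074, limma adjusted p = 0.764, n = 2 per group). Bmp4 and 2 of its known targets, Id2 and Id3, had differences of opposite sign, none of which passed over all genes. Id1 kept no sign over the settings. Of the 13 tested genes in the separate list of BMP targets, 7 had a negative and 6 a positive difference.

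**Figure D3:**
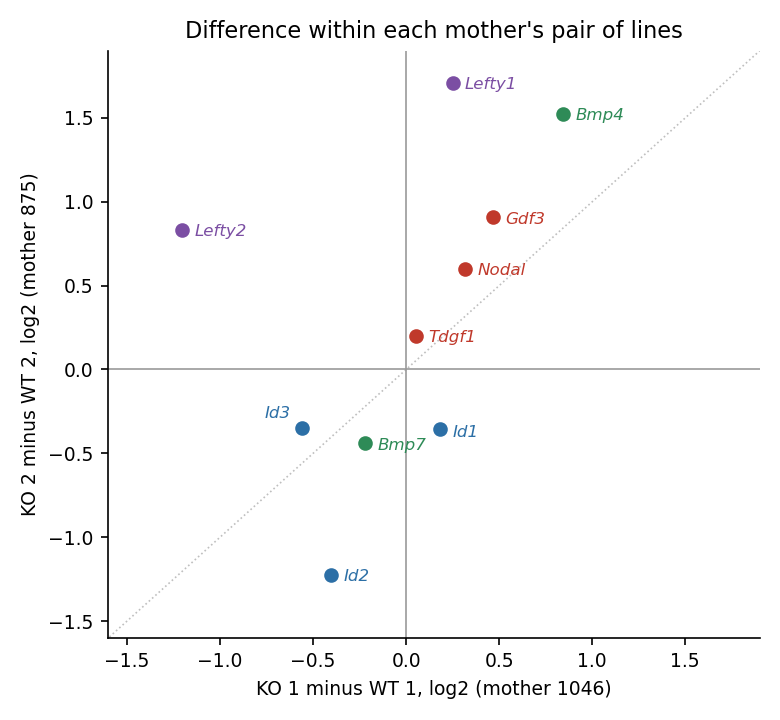
Log2 difference, KO minus WT, within the pair of lines from mother 1046 (x axis) and within the pair from mother 875 (y axis) for each of the 10 genes, with 1 array per line. Points at the upper right and lower left have the same sign in both pairs, and only Lefty2 and Id1 lie elsewhere. The dotted line marks equal differences.

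Of the 10 genes, 5 were higher in KO in both pairs of lines and 3 were lower in both, against 46.8% and 29.3% of all genes. The signs of 7 genes were kept in each of the 14 alternatives. These were Nodal, Gdf3, Lefty1 and Bmp4 with a positive difference and Bmp7, Id2 and Id3 with a negative one. Among these, the difference of Nodal was 0.30 under normexp with quantiles, and that of Id3 was -0.27 without WT replicate 1 and -0.29 under median centring. Bmp7 ranged from -0.61 without KO replicate 1 to -0.055 without KO replicate 2. With the mother as a block, limma adjusted p lay between 0.170 for Bmp4 and 0.863 for Lefty2. No member was called in any of the 14 alternatives, where the lowest limma adjusted p was 0.0860, for Gdf3 with an intensity trend and robust prior. With the mother as a block or genes above background on all 4 arrays, no gene at all was called, so those settings could not call a member. The fits without KO replicate 2, without WT replicate 1 and without WT replicate 2 could not call a member either. Fits with an array left out keep a single line in that genotype.

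Profiles over the 4 arrays were compared by the Euclidean distance between deviations from the gene mean, over 14371 other genes with a symbol. The nearest to Nodal were Lin52 (distance 0.012), Zfyve26 (0.017) and Appl2 (0.025). The nearest to Id1 were Brf1 (0.018), Gm5065 (0.018) and Cfap97 (0.036). None of these 6 is a member of the pathway lists, and 4 arrays are few points for a likeness.

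The rest of the pathways held the genes that did pass. Across 6 lists of other ligands, receptors, inhibitors and proteases, Smads and cofactors, and target genes, 87 of 102 listed genes were tested. Of these 87, 4 fell in KO lines, 0 rose and 83 did not pass in limma. Over all genes 1.67% were called lower and 0.176% higher. The unadjusted counts were 21 lower and 5 higher of 87, where 12.4% and 11.1% of all genes were. The same shares stand behind the counts of each list. The median log2 difference of the 87 was -0.19, beside 0.10 for all genes tested.

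Of 18 other ligands tested, 1 fell and 17 did not pass, with a median of -0.26. The gene that fell was Gdf1, a ligand that pairs with Nodal in the mouse embryo. It had 9.81 and 10.25 log2 signal in KO lines, against 12.99 and 13.18 in WT lines, an 8.31-fold fall (log2 difference -3.06, SE 0.21, n = 2 per group, limma adjusted p = 0.0271). In the reference annotation Gdf1 overlaps Upf1 and also Cers1, with which it is known to share a transcript, so the signal cannot be given to Gdf1 alone. Of the 18 ligands, 13 had a negative and 5 a positive log2 difference (6 lower and 2 higher at an unadjusted limma p under 0.05). Among those that did not pass were Tgfb2 (log2 difference -3.54), Bmp1 (-2.62) and Bmp8b (-2.50), with limma adjusted p from 0.0526 to 0.0991. Bmp2 (-3.04) was not well above background in either KO line. These were named after their values were seen, as was Inhbb, which encodes an activin subunit and had the largest rise of the list. It had 10.36 and 12.37 in KO lines, against 8.53 and 8.76 in WT lines (log2 difference 2.72, limma adjusted p = 0.167, n = 2 per group). The KO values of Inhbb were 2.01 apart, and it passed only without KO replicate 1 (log2 difference 3.73, limma adjusted p = 0.0448).

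Of 15 receptor genes, 1 fell and 14 did not pass, with a median of -0.28. Tgfbr2, the type II receptor for TGF-beta and not for Nodal or BMPs, overlaps the long non-coding RNA gene Gm31292 in the reference annotation. It had 7.53 and 7.73 log2 signal in KO lines, against 10.49 and 10.26 in WT lines. This was a 6.68-fold fall (log2 difference -2.74, SE 0.16, n = 2 per group, limma adjusted p = 0.0237). None of 17 Smad and cofactor genes passed in limma (unadjusted, 1 was lower and 1 higher), with a median of 0.07. The smallest p were those of Smad3, a mediator of Nodal signals (log2 difference -0.81, or -0.52 as the mean of its probes), the corepressor gene Tgif1 (0.43) and the ubiquitin ligase gene Smurf2 (-0.37), with limma adjusted p from 0.139 to 0.217.

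Of 19 genes of extracellular inhibitors and proteases, 2 fell and 17 did not pass, with a median of -0.079. Both that fell encode secreted proteins that bind BMP ligands and keep them from their receptors. Nog, the gene of noggin, had 4.93 and 5.01 log2 signal in KO lines, against 6.42 and 6.29 in WT lines, a 2.62-fold fall (log2 difference -1.39, SE 0.13, n = 2 per group, limma adjusted p = 0.0429). Chrdl1, a relative of chordin, had 5.83 in both WT lines and was not well above background in either KO line, at least 5.84-fold lower (limma adjusted p = 0.0097). The p of Chrdl1 rests on a KO spread of background signal. Its other probes did not pass the filter on dim probes. In WT lines the brighter of them had 2.46 and 3.85 log2 signal and the dimmer 1.71 and 2.24. Their log2 differences were -2.08 and -0.67, so the size of the fall rests on a single probe. The inhibitor and protease genes Cer1 and Dand5 were not tested, the first for lack of signal above background in either group and Dand5 for lack of a probe with that symbol.

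None of 12 Nodal target genes passed in limma (unadjusted, 3 were lower and 1 higher), with a median of -0.15. Those with the smallest p were the T-box genes Eomes (log2 difference -1.79) and T (-4.47), both active in the mouse primitive streak, and the LIM homeobox gene Lhx1 (-0.62, or -0.17 under normexp with quantiles), with limma adjusted p from 0.0745 to 0.175. T had 8.01 and 5.01 log2 signal in KO lines, against 11.54 and 10.42 in WT lines, so the groups did not overlap but the KO lines were far apart, and the difference was -2.97 without KO replicate 2. None of 13 BMP target genes passed in limma (unadjusted, 2 were lower and 1 higher), with a median of -0.079. Those with the smallest p were the T-box gene Tbx3 (log2 difference 1.51), the trophoblast homeobox gene Cdx2 (-3.02) and the homeobox gene Msx2 (-1.58), with limma adjusted p from 0.104 to 0.211.

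The 4 falls did not outlast every setting. With the mother as a block none of the 4 passed, limma adjusted p lying between 0.0790 for Chrdl1 and 0.106 for Nog. No gene at all passed in that fit or with genes above background on all 4 arrays, so neither setting could call these 4. Chrdl1 was not tested in the second of these settings. The fits without KO replicate 2, without WT replicate 1 and without WT replicate 2 could not call the 4 genes either. With single arrays left out, the log2 difference ran from -3.27 to -2.84 for Gdf1 and from -2.86 to -2.62 for Tgfbr2. It ran from -4.85 to -4.72 for Chrdl1 and from -1.45 to -1.32 for Nog. Such fits keep a single line in 1 genotype. Nog passed in 1 of the 14 alternatives, Chrdl1 in 8, and Gdf1 and Tgfbr2 in 9. The log2 difference of Nog was -0.62 under normexp with the 75th percentile and -0.44 under normexp with quantiles, and that of Chrdl1 was -1.07 and -0.91 in the same order. Normexp added an offset of 50 to the signal, which by itself makes log2 differences of dim probes smaller. How much of the smaller values came from the offset was not tested.

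**Figure D4:**
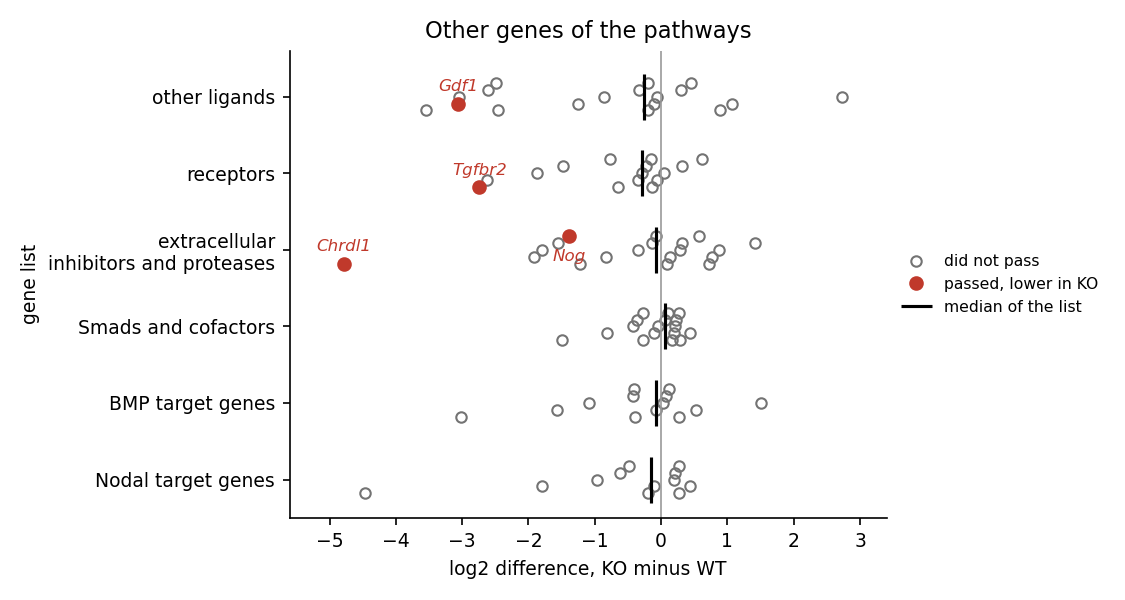
Log2 difference, KO minus WT, of every tested gene in the 6 pathway lists, 1 point per gene. Filled red points passed at a limma adjusted p under 0.05, all of them lower in KO, open points did not pass, and black bars mark list medians. A gene in several lists appears in each, and the value of Chrdl1 is measured against KO signal at background.

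Summed signal of the markers did not overlap between genotypes for the trophoblast, mesoderm and primitive streak, primed epiblast and ESC lists, and overlapped for the fibroblast and primitive endoderm lists. A few bright genes set most of several sums. Calls are to be read against the 1.67% of all genes called lower and 0.176% called higher, and unadjusted counts against 12.4% lower and 11.1% higher. Summed linear signal of 8 trophoblast markers was 60809 to 85085 in KO lines, against 288477 to 376566 in WT lines, with 1 of 8 called lower and none called higher by limma (5 lower and 1 higher unadjusted). Krt18 and Krt8 made up 80.8% to 84.5% of this sum in KO lines, against 95.7% to 97.1% in WT lines, while Tfap2c (log2 difference 0.45) and Ascl2 (0.21) had the opposite sign. The median log2 difference of the 8 was -1.83. The summed signal of 10 mesoderm and primitive streak markers was 657 to 1600 in KO lines, against 5044 to 7554 in WT lines, with 1 lower (5 unadjusted). Wnt3 and T, neither of which passed, made up 41.7% to 61.0% of this sum in KO lines, against 79.2% to 81.9% in WT lines. Gsc (log2 difference 0.27), Mesp1 (0.15) and Hand2 (0.58) had a positive sign, while the median of the 10 was -1.59. The 8 primed epiblast markers summed to 78190 to 102161 in KO lines, against 117274 to 129526 in WT lines, with 1 lower (3 unadjusted). Pou3f1 (log2 difference -0.28) and Dnmt3b (-0.05) made up 89.2% to 92.0% of this sum in KO lines, against 72.0% to 78.2% in WT lines. The median log2 difference of these 8 markers was -0.99. The 9 ESC markers summed to 618173 to 727381 in KO lines, against 475738 to 484932 in WT lines, with none called by limma (5 higher unadjusted). Dppa5a made up 68.1% to 75.9% of the ESC sum in KO lines, against 80.4% to 83.3% in WT lines, and the median log2 difference of the 9 was 0.85. Sums of 12 fibroblast markers were 19109 to 27536 in KO lines, against 12509 to 39066 in WT lines. S100a4 and Thy1 made up 82.8% to 88.7% of the fibroblast sum in KO lines, against 57.1% to 67.0% in WT lines. Both had a positive log2 difference (0.52 and 0.59), while the median of the 12 was -1.22. Both KO arrays lay below both WT arrays for 6 of the 12 and above for 0, against 24.5% and 37.7% of all genes. Sums of 11 primitive endoderm markers were 3048 to 3830 in KO lines, against 2895 to 3162 in WT lines, with a median log2 difference of 0.53. Fibroblast markers had 2 lower, and primitive endoderm markers 1 lower and 1 higher. Tpbpa of the trophoblast and Ttr of the primitive endoderm list were not well above background in either group. The part of these cell states in the differences of the 10 genes was not tested.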

How the data were processed

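Per the file headers, spot intensity was extracted by version 10.7.3.1 of Agilent Feature Extraction, with mm9 as the build. The processed signal is background-subtracted within the array and not scaled between arrays. The raw median spot and background intensities are unscaled, per the file headers. The deposited log2 table holds quantile-normalized values without centring of genes, as its values show. Its columns differed by at most 0.00073 at any quantile. Each column had a median of 6.55 and correlated with its array at 0.9999 or more. Here the log2 processed signal was scaled to the 75th percentile of all gene spots of an array and re-centred on the mean percentile. Control spots and outlier-flagged spots were left out, and replicate spots were averaged. By accession, 26690 of 41174 gene probes matched 1 symbol in RefSeq GRCm38.p6, 14484 matched none and 0 several. All spots of 233 probes were flagged on some array, which removed them.

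A probe was kept where well above background on both arrays of a group, and the brightest kept probe stood for its gene. The test was limma 3.58.1 (R 4.3.3; lmFit and eBayes, Benjamini-Hochberg adjusted p under 0.05). Where no array of a group was well above background, "at least" folds set the mean of the brighter group against, per dim array, the higher of the probe's value and the lowest signal well above background (log2 3.24 to 3.58). The labels tie equal replicate numbers to a shared mother, and mother differences correlated at 0.19 between genotypes across genes, so a fit with the mother as a block was run. The alternatives were other scalings, backgrounds (normexp with an offset of 50), filters and probe rules, the deposited values, and each array left out. Named genes are all members, Dppa2 and Dppa4, of each list the genes passing (at most 4) or the 3 with the smallest p, and the 3 profiles nearest to Id1 and to Nodal. Further ligands, Id4 and single markers were named after their values were seen. Members and lists were chosen with earlier results of these data known, and 2 listed genes are not reported here. The number of arrays limits the precision: an exact permutation test of 2 against 2 lines cannot go below p = 0.333 (two-sided).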

Additional observations from a re-analysis of the deposited data

Results flagged for a closer look

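Lefty2 and Id1 had differences of opposite sign in the 2 pairs of lines. Lefty2 had a log2 difference, KO minus WT, of -1.21 between the lines of mother 1046 and of 0.83 between those of mother 875. The difference of Id1 was 0.18 for mother 1046 and -0.35 for mother 875. Each pair holds 1 array per genotype, so the difference between the pairs was not tested. The split by mother was chosen after seeing the data. With groups of 2, single arrays were not screened as outliers.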

How the results depend on the processing

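The 10 genes had no call in any of the 14 alternatives, with limma adjusted p from 0.0860 to 0.985. Signs turned for Lefty2 (0.69 without KO replicate 1, and -1.07 to 0.69 over single arrays left out), Tdgf1 (-0.016 under quantile normalization and in the deposited values, -0.025 under normexp with quantiles) and Id1 (0.079 under median centring and -0.35 to 0.18 over single arrays left out). With the replicate block, the mother, limma called 0 genes lower and 0 higher over all genes and 0 of the pathway genes (2736 lower and 2278 higher unadjusted), and Dppa2 kept its log2 difference of -4.97 at an adjusted p of 0.0790. As no gene was called with the block, that fit could not call any of the 10 genes. Nor could the fits without KO replicate 2, without WT replicate 1 and without WT replicate 2. With genes above background on all 4 arrays the counts were likewise 0 lower, 0 higher and 0 pathway genes (2184 lower and 2444 higher unadjusted, Dppa2 -4.97, limma adjusted p = 0.0503). With single arrays left out, 0 to 679 genes were lower and 0 to 64 higher, where the main counts were 361 and 38. Pathway genes then numbered 0 to 7 lower and 0 to 1 higher, and the log2 difference of Dppa2 ran from -5.01 to -4.94, called only without KO replicate 1. Genes called higher numbered 58 under median centring, 69 under normexp with the 75th percentile, 10 with no filter on dim probes and 80 with an intensity trend and robust prior. Causes of these shifts were not tested. With 2 lines per group the intervals of the 10 genes span 0.76 to 3.81 on the log2 scale.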
